A study of Mus musculus with 12 samples.

Results

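Ribosome biogenesis and the Myc response were examined through 41 genes in blood progenitors of mice that had lost Lamtor2. The genes were taken as a fixed list by symbol, and 40 of them were measured by a probe set with a single gene symbol, out of 19937 genes in all. They were covered by 44 probe sets. Noc2l had no such probe set in the annotation used. The arrays came from 3 C57BL/6J mice with Mx-Cre and floxed Lamtor2 alleles (KO) and 3 C57BL/6J mice with Mx-Cre and wild-type Lamtor2 (WT). KO and WT mice alike received pIpC by intraperitoneal injection, and cells were sorted from bone marrow at day 14, when RNA was amplified and hybridised to Affymetrix arrays. KO and WT were each represented by 3 arrays of LSK cells and 3 of GMP, giving 4 groups. The LSK gate took lineage-negative cells with Sca1 and c-kit, a population of stem cells and multipotent progenitors. The GMP gate took lineage-negative cells with c-kit, CD34 and FcγR but without Sca1, which give rise to granulocytes and macrophages. The strain label writes the transgene as Mx1-Cre wt/wt in all 12 samples. Mx-Cre is switched on through the interferon-responsive Mx1 promoter, and pIpC was common to all groups. The size of the interferon response in each group was not read here. Mx-Cre also acts outside the blood. The labels give neither the age of the mice nor which LSK and GMP samples shared a mouse.

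Ribosomes are built in the nucleolus. RNA polymerase I transcribes the precursor of the ribosomal RNAs, small nucleolar RNPs of the box C/D and box H/ACA classes guide its chemical modification, and a succession of assembly factors folds, cuts and exports the small and the large subunit. Myc, with its partner Max, binds the E-box CACGTG and raises the transcription of many of these genes, and mTORC1, which is activated on lysosomes with the help of the Ragulator complex that contains Lamtor2, also promotes ribosome production. In bone marrow, stem cells are known for low protein synthesis and their dividing progeny for high protein synthesis.

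The deleted gene read 5.11, 5.40 and 5.77 (log2) in LSK KO, against 10.39, 10.48 and 10.31 in LSK WT, and 5.53, 5.12 and 4.95 in GMP KO, against 10.80, 10.82 and 10.61 in GMP WT. Array medians lay between 5.96 and 6.18 on the log2 scale. Hlf read 10.19 to 10.43 in LSK KO and 10.71 to 11.05 in LSK WT, against 7.59 to 7.86 in GMP KO and 7.28 to 7.71 in GMP WT. Mpo read 12.11 to 12.57 in LSK KO and 11.63 to 12.11 in LSK WT, against 13.14 to 13.33 in GMP KO and 13.36 to 13.42 in GMP WT. Of the gate markers, Fcgr3 (FcγR) read 10.37 to 10.72 in GMP KO and 9.94 to 10.29 in GMP WT. In LSK, Fcgr3 read 7.80 to 8.50 in KO and 5.61 to 6.45 in WT. Cd34 was not higher in GMP. It read 10.12 to 11.24 in GMP KO and 11.23 to 11.49 in GMP WT, against 11.77 to 11.93 in LSK KO and 11.96 to 12.03 in LSK WT. Kit, which encodes c-kit, read 10.46 to 11.08 in GMP KO and 10.28 to 10.45 in GMP WT, without overlap. In LSK, Kit read 11.19 to 11.44 in KO and 11.26 to 11.47 in WT. Ly6a, which encodes Sca1, had no probe set with a single symbol. GMP KO replicate 1 stood apart from the other GMP KO arrays (mean correlation 0.979, array weight 0.19), and calls on the 40 genes that change without it are given below with and without it. In bulk samples, fewer cells of a type and less RNA per cell cannot be told apart. RMA sets all arrays to the same distribution, so a change shared by most transcripts would not be seen in these values.

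The KO arrays differed from WT in opposite directions in the 2 populations. Averaged over the 40 genes, the level was 9.55, 9.54 and 9.63 in LSK KO and 9.34, 9.30 and 9.40 in LSK WT, so that each LSK KO array lay above each LSK WT array. In GMP the order was turned, with 9.22, 9.36 and 9.40 in GMP KO and 9.59, 9.74 and 9.66 in GMP WT. The mean over all 19937 genes stayed between 6.58 and 6.61 in the 12 arrays. Of the 40 group orders, 27 had their highest mean in GMP WT and 12 in LSK KO, while 22 had their lowest mean in LSK WT and 16 in GMP KO.

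**Figure D1:**
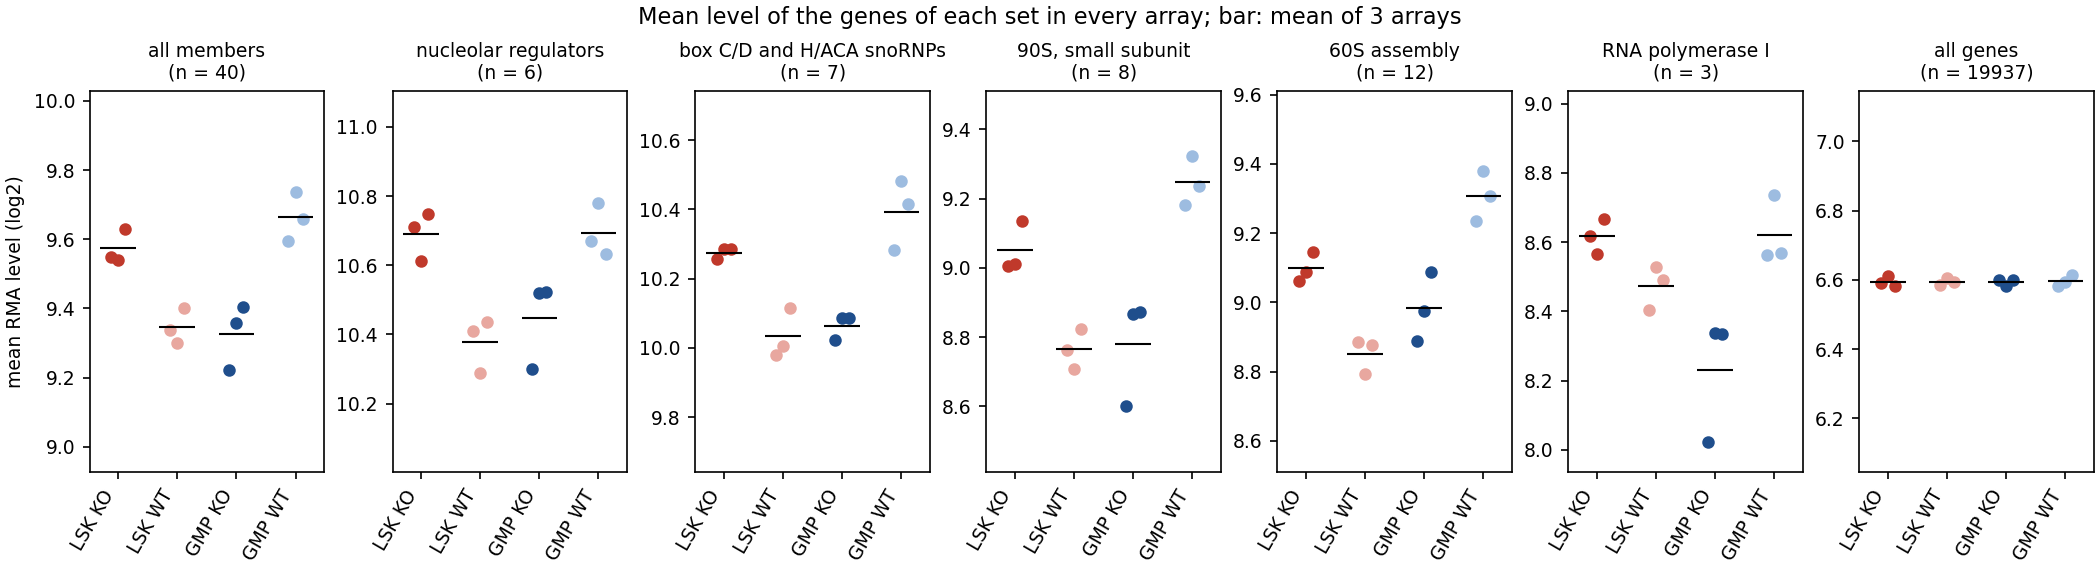
Mean RMA level (log2) of the genes of each set in every array, with points for arrays and a bar for the mean of 3 arrays, for the 40 genes, 5 of their roles and all genes. Each axis spans the same number of log2 units, not starting at 0; LSK KO lies above LSK WT and GMP KO below GMP WT in all panels but that of all genes.

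In LSK, 9 of the 40 genes (22.5%) were higher in KO and 0 were lower at an adjusted p under 0.05 in limma's fit over all genes, against 2.49% of all genes called higher and 1.96% called lower. The median log2 fold change was 0.27, against -0.01 over all genes, and 36 of 40 fold changes were above 0. All 3 KO arrays lay above all 3 WT arrays for 29 genes, which was the case for 12.4% of all genes. By mean level all 40 genes lay above the median gene (lowest percentile 59.2, median percentile 92.0). The shares of all genes, here and below, therefore include many dimmer genes. The 9 were Myc, Gnl3, Gar1, Nhp2, Utp20, Wdr43, Nob1, Rrs1 and Nop16, with increases between 0.32 and 0.64. Only Gnl3 stayed past the threshold whichever of the 6 LSK arrays was left out. Of all 40 genes, the number called higher was 2, 3 and 1 without LSK KO replicate 1, 2 and 3, and 3, 1 and 4 without LSK WT replicate 1, 2 and 3.

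In GMP, 16 of the 40 genes were lower in KO and 0 were higher, against 10.3% of all genes called lower and 5.78% called higher. The median log2 fold change was -0.30, against 0.01 over all genes, and 38 of 40 fold changes were below 0. All 3 KO arrays lay below all 3 WT arrays for 28 genes, which held for 17.6% of all genes. Among all genes called in GMP, 35.9% were higher in KO, or 24.7% with each array centred on its median. With the dimmest 30% of genes left out, 19 of the 40 genes were lower in GMP KO, among 2269 genes called lower, against 2059. In LSK KO 12 of the 40 were then higher, among 549 genes called higher, against 496. The 16 were spread over all roles but the Myc factors, and 7 of them (Cad, Dkc1, Utp18, Rrp12, Bysl, Bop1 and Ftsj3) stayed past the threshold whichever GMP array was left out. The other 9 each lost it without GMP WT replicate 2, when 7 genes were called lower. With another GMP array left out, between 13 and 18 were called lower, and 15 were without GMP KO replicate 1.

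**Figure D2:**
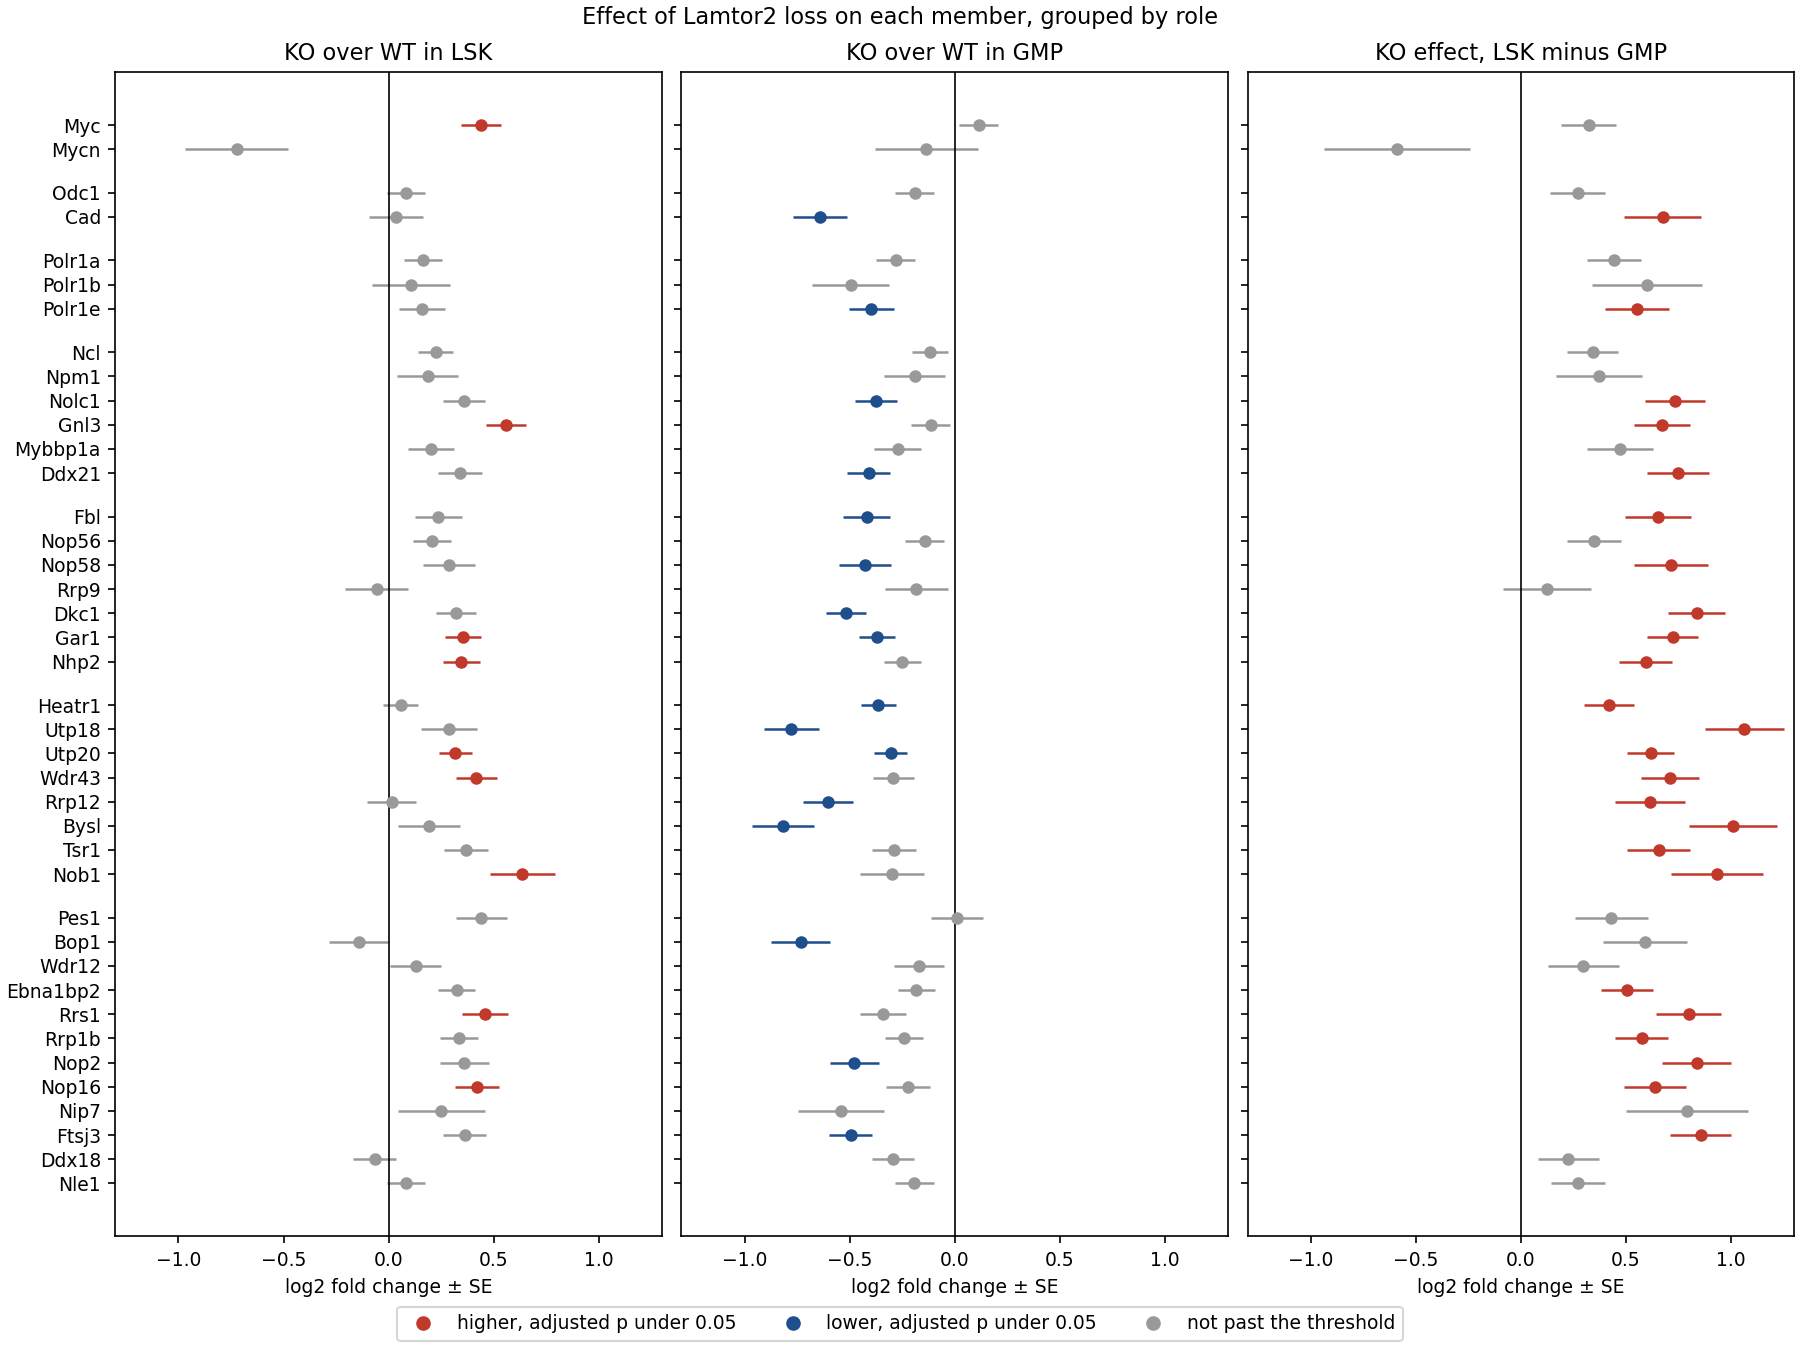
Log2 fold change of KO over WT in LSK (left) and in GMP (middle) and the difference of the effects, LSK minus GMP (right), for 40 genes grouped by role; points are limma estimates from 3 arrays a group and bars their SE. Red marks 9 genes in LSK and 24 in the difference called higher, blue marks 16 genes in GMP called lower, and grey the rest.

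Of the Myc factors, Myc itself was higher in LSK KO. It read 12.29, 12.25 and 12.32 in LSK KO, against 11.92, 11.77 and 11.85 in LSK WT. The groups did not overlap, and Myc rose by 0.44 (SE 0.09, adjusted p = 0.016), a 1.36-fold difference. It lost the threshold when replicate 1 or 3 of LSK KO, or replicate 2 or 3 of LSK WT, was left out (adjusted p up to 0.0805). In GMP, Myc read 11.92, 12.10 and 11.85 in KO and 11.74, 11.90 and 11.88 in WT, with overlapping groups (log2 fold change 0.12, adjusted p = 0.476). Myc was thus not among the genes called lower in GMP KO. The difference between its effects in LSK and GMP was 0.32 (95% interval 0.04 to 0.61, adjusted p = 0.163), which did not pass.

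Mycn, the N-Myc paralogue known from blood stem cells, was called in neither population. Its values were 7.50, 7.38 and 8.06 in LSK KO and 8.03, 8.33 and 8.74 in LSK WT (log2 fold change -0.72, SE 0.25, adjusted p = 0.132). LSK KO replicate 3 overlapped with LSK WT replicate 1. With array weights Mycn was called lower in LSK KO (-0.73, adjusted p = 0.0327). In GMP it read 6.61, 5.64 and 6.03 in KO and 6.14, 6.08 and 6.46 in WT, close to the 4.95 to 5.77 that the deleted gene read in the KO arrays. It was the only one of the 40 genes called higher in LSK than in GMP within WT, by 2.14 (SE 0.25, adjusted p = 3.08e-05), and it was also higher by 1.55 within KO (adjusted p = 0.00101).

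Of the other genes of the Myc, Max and Mxd network, 15 were measured. In LSK KO 0 were higher and 1 (6.67%) was lower, against 2.49% and 1.96% of all genes. In GMP KO 3 (20%) were higher and 0 lower, against 5.78% and 10.3% of all genes. Mxd4, a Max partner that opposes Myc, fell in LSK by 0.41 (SE 0.10, adjusted p = 0.0295), a call that was kept in only 1 of the 6 fits with an LSK array left out. Those that rose in GMP KO were Mnt (0.43, adjusted p = 0.00786) and Mxd1 (0.48, adjusted p = 0.0217), which are also Max partners that oppose Myc, and Mlxip (0.30, adjusted p = 0.0448), a partner of Mlx. The calls of Mxd1 and Mlxip were each lost with at least 1 GMP array left out. The network's median fold change was -0.02 in LSK and -0.01 in GMP.

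The E-box CACGTG, the sequence that Myc and Max bind, was looked for in promoter windows of 250 bases before to 50 bases after the start of each gene (RefSeq, GRCm38.p6; the motif reads the same on both strands). A window was given for 34 of the 40 genes and the motif was found in 8 of them (23.5%): Mybbp1a, Nle1, Nop2, Pes1, Tsr1, Utp18, Utp20 and Wdr43. It was found in a window of 9.50% of the 15613 tested genes that have one, and in 7.15% of all 32851 windows. Of the 8 genes with the motif, 4 were called in LSK or GMP KO, against 14 of the 26 without it. The windows of these 4 genes are printed because they carry the motif in genes that changed, from 5′ to 3′ on the strand of the gene with the E-box in capitals. They lie at chr6:125131633-125131932 (Nop2, plus strand), chr10:88826765-88827064 (Utp20, minus strand), chr11:93885717-93886016 (Utp18, minus strand) and chr17:71615965-71616264 (Wdr43, plus strand).
Nop2 promoter: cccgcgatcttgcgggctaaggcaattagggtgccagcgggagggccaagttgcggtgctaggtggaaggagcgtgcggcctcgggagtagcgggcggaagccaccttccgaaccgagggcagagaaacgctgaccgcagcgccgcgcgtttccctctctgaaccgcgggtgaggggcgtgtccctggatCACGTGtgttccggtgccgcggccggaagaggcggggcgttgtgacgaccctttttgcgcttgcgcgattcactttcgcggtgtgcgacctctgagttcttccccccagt
Utp20 promoter: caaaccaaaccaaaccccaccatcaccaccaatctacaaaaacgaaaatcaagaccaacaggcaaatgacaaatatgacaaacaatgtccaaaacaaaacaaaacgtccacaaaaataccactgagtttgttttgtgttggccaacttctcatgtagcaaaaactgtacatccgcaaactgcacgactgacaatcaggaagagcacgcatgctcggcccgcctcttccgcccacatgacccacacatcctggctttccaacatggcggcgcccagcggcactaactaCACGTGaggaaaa
Utp18 promoter: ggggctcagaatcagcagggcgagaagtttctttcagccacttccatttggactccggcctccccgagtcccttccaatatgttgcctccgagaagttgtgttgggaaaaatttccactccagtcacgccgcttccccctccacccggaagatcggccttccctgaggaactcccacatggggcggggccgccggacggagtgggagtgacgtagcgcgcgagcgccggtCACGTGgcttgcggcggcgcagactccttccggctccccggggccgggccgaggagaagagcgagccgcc
Wdr43 promoter: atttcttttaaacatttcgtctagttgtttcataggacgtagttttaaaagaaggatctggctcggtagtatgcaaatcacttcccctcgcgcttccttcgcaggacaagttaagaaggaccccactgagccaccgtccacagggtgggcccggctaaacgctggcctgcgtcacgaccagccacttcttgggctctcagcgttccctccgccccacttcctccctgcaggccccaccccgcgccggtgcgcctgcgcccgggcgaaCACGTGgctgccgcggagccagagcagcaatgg
Counted from the start of the gene, the first base of the motif lies at -60 in Nop2, at -20 in Utp18, at 18 in Wdr43 and at 38 in Utp20. A match of these letters is a description and does not show binding.

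Odc1 and Cad are Myc targets outside the nucleolus. Cad, the enzyme of the first steps of pyrimidine synthesis and a substrate downstream of mTORC1, read 8.22, 8.74 and 8.76 in GMP KO, against 9.15, 9.33 and 9.17 in GMP WT. It fell in GMP by 0.64 (SE 0.13, adjusted p = 0.0043), while in LSK it read 8.91, 8.89 and 8.91 in KO and 8.79, 8.87 and 8.95 in WT (log2 fold change 0.03). The effects differed by 0.68 (adjusted p = 0.0378). Odc1, the rate-limiting enzyme of polyamine synthesis, was not called in either population, with fold changes of 0.08 in LSK and -0.19 in GMP. Its other probe set gave 0.03 and -0.39.

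Of the 3 subunits of RNA polymerase I, only Polr1e passed a test. It read 7.48, 7.57 and 7.36 in GMP KO, against 7.69, 8.10 and 7.81 in GMP WT, and fell by 0.40 (SE 0.11, adjusted p = 0.0244). The catalytic subunit Polr1a had a fold change of -0.28 in GMP (adjusted p = 0.0507) and Polr1b one of -0.49 with overlapping groups (adjusted p = 0.0896). Polr1b read 7.79 in GMP KO replicate 1 and 8.56 and 8.72 in the others. In LSK the 3 subunits had fold changes of 0.11 to 0.16, and none was called. Of 12 further genes of RNA polymerase I and its factors, 0 were called in LSK (median 0.15) and 3 were lower in GMP KO (median -0.24). These were Tcof1, the treacle protein that helps to load the polymerase on ribosomal DNA (-0.41, adjusted p = 0.00765), Nol11 (adjusted p = 0.0296) and the subunit Polr1d (-0.44, adjusted p = 0.0350), of which Nol11 and Polr1d lost the call with some GMP arrays left out.

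Among the 6 nucleolar regulators, Gnl3 stood out in LSK. This nucleolar GTPase, also called nucleostemin, read 10.38, 10.47 and 10.43 in LSK KO, against 9.94, 9.71 and 9.96 in LSK WT. It rose by 0.56 (SE 0.09, adjusted p = 0.0039), and with an array left out the adjusted p lay between 0.0093 and 0.0224. In GMP it read 10.09, 10.08 and 10.16 in KO and 10.19, 10.33 and 10.16 in WT (log2 fold change -0.11, adjusted p = 0.488). Gnl3 in LSK KO was higher than in GMP KO by 0.32 (adjusted p = 0.0355), whereas Gnl3 in LSK WT was lower than in GMP WT by 0.35 (log2 fold change -0.35, adjusted p = 0.0157).

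Nolc1 and Ddx21 changed in GMP. Nolc1, a chaperone of small nucleolar RNPs, read 9.73, 9.95 and 9.99 in GMP KO, against 10.20, 10.32 and 10.28 in GMP WT, and fell by 0.38 (adjusted p = 0.0207; without GMP KO replicate 1, by 0.30 with adjusted p = 0.0552). Ddx21, an RNA helicase that acts in both transcription and processing of ribosomal RNA, read 9.57, 9.64 and 9.59 in GMP KO, against 9.93, 10.17 and 9.93 in GMP WT, and fell by 0.41 (adjusted p = 0.0160). In LSK their KO arrays lay above the WT arrays, with fold changes of 0.36 (adjusted p = 0.0624) and 0.34 (adjusted p = 0.0893). The abundant nucleolar proteins Ncl and Npm1, and Mybbp1a, a regulator of ribosomal DNA transcription, were called in neither population. Their fold changes were 0.19 to 0.22 in LSK and -0.27 to -0.12 in GMP.

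**Figure D3:**
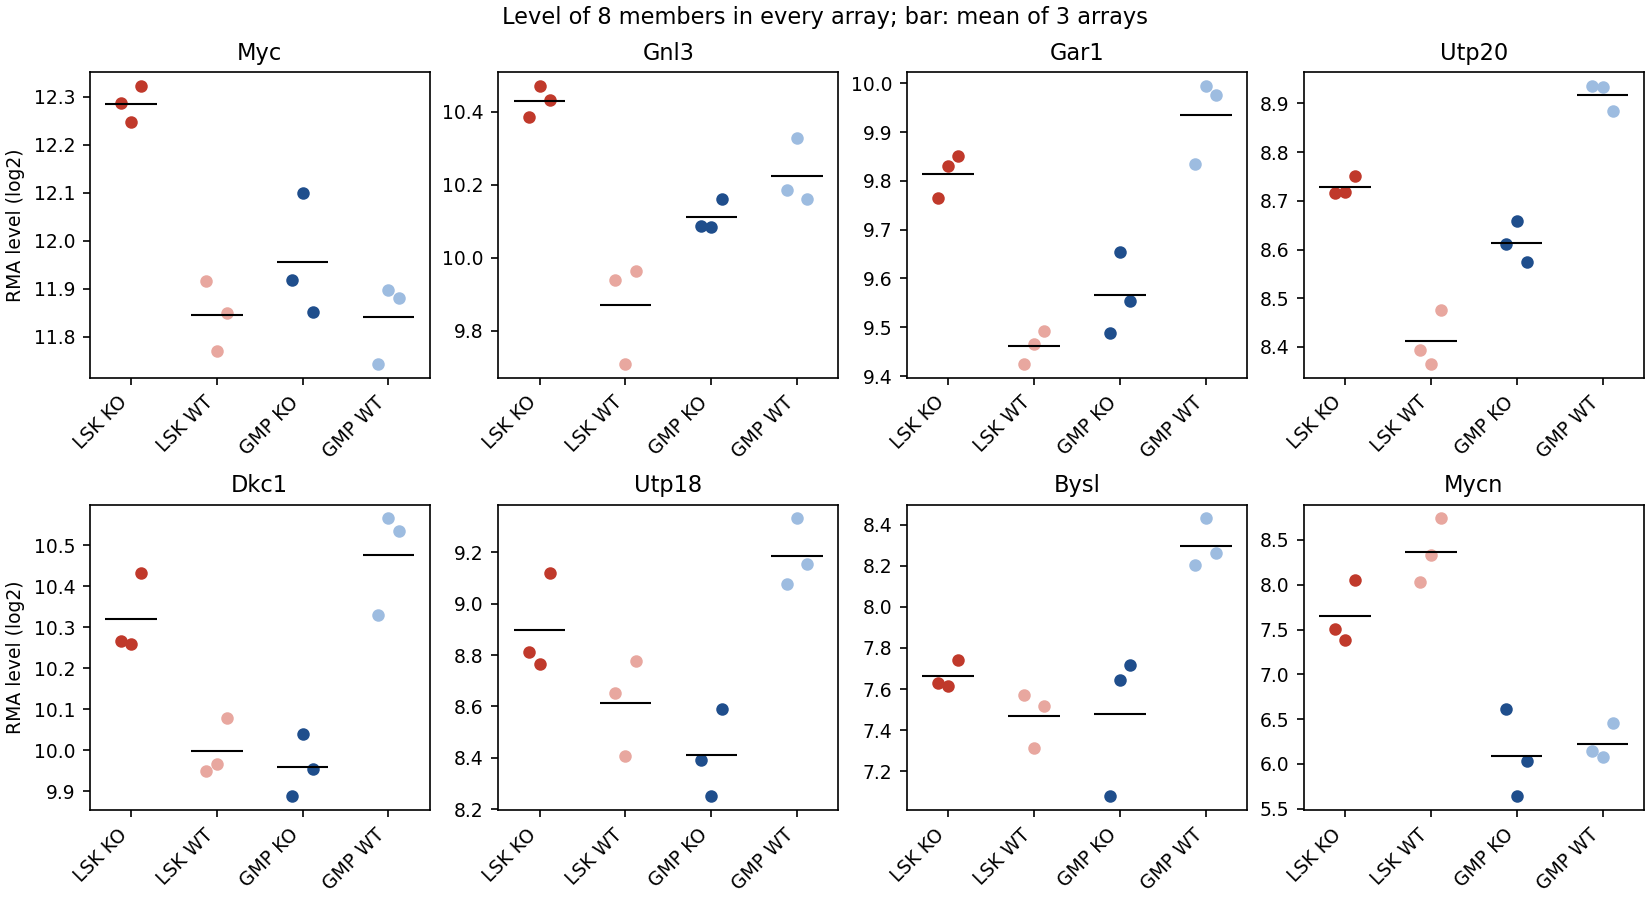
RMA level (log2) of 8 genes in every array, with points for arrays and a bar for the mean of 3 arrays. Axes do not start at 0 and differ between panels; Myc and Gnl3 are highest in LSK KO, Gar1, Utp20, Dkc1, Utp18 and Bysl in GMP WT, and Mycn in LSK WT.

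Box H/ACA proteins, which carry pseudouridine synthesis, changed in both populations. Gar1 was 1 of 2 genes called in opposite directions. It read 9.76, 9.83 and 9.85 in LSK KO, against 9.42, 9.47 and 9.49 in LSK WT, and rose by 0.35 (SE 0.09, adjusted p = 0.0331). In GMP it read 9.49, 9.65 and 9.55 in KO, against 9.83, 9.99 and 9.98 in WT, and fell by 0.37 (SE 0.09, adjusted p = 0.0101). The groups did not overlap in either population. Leaving out any 1 of the LSK arrays took the adjusted p of the rise to between 0.0649 and 0.119, and without 1 GMP array that of the fall reached 0.052. The fall also lost its call in the fit of the 6 GMP arrays alone.

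Nhp2, another core protein of the class, read 10.79, 10.78 and 10.84 in LSK KO, against 10.45, 10.34 and 10.59 in LSK WT, and rose by 0.35 (adjusted p = 0.0439). Its fold change in GMP was -0.25 (adjusted p = 0.0784). Dkc1, the pseudouridine synthase itself, read 9.89, 10.04 and 9.95 in GMP KO, against 10.33, 10.57 and 10.54 in GMP WT. Dkc1 fell in GMP by 0.52 (SE 0.10, adjusted p = 0.0028), while in LSK its fold change was 0.32 with all 3 KO arrays above WT (adjusted p = 0.0848).

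Of the box C/D proteins, which direct ribose methylation, 2 were called lower in GMP KO. Nop58 read 10.08, 10.56 and 10.58 in GMP KO, against 10.73, 10.91 and 10.85 in GMP WT, and fell by 0.43 (adjusted p = 0.0333). Without GMP KO replicate 1, the array with the lowest value, the log2 fold change of Nop58 was -0.26 (adjusted p = 0.0747). The methyltransferase Fbl fell by 0.42 (adjusted p = 0.0204), but its other probe set gave -0.06, and with the mean of both sets the call was lost. Without GMP KO replicate 1 the log2 fold change of Fbl was -0.32 (adjusted p = 0.0570). The annotation does not say which of the 2 sets reads the gene and which a related copy. Nop56, the partner of Nop58, and Rrp9, a protein of the U3 particle, were called in neither population, and Rrp9 had the only fold change below 0 of this class in LSK (-0.06).

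Of 13 further genes of snoRNP assembly, 0 were called in LSK (median 0.16) and 3 were lower in GMP KO (median -0.28). These were Rpap3 (-0.55, adjusted p = 0.0112) and Ruvbl1 (-0.67, adjusted p = 0.0117), both of the machinery that assembles the particles, and Nvl (-0.37, adjusted p = 0.0196). Each of these 3 calls was lost with at least 1 GMP array left out (adjusted p up to 0.0894).

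The 8 genes of small subunit assembly held the largest called effects of the set. Utp18, a component of the small subunit processome, read 8.39, 8.25 and 8.59 in GMP KO, against 9.08, 9.33 and 9.15 in GMP WT, and fell by 0.78 (SE 0.13, adjusted p = 0.0016), a 1.71-fold difference. Bysl, which acts late in small subunit maturation, read 7.08, 7.64 and 7.72 in GMP KO, against 8.20, 8.43 and 8.26 in GMP WT, and fell by 0.82 (SE 0.15, adjusted p = 0.0023). Rrp12, an export factor of the subunits, read 7.32, 7.66 and 7.87 in GMP KO, against 8.21, 8.21 and 8.24 in GMP WT, and fell by 0.60 (SE 0.12, adjusted p = 0.0039). These 3 falls held with each GMP array left out, and in LSK the fold changes of the same genes were 0.29, 0.19 and 0.01, with none called.

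Utp20, a processome component whose promoter window is printed above, was the other gene called in opposite directions. It read 8.72, 8.72 and 8.75 in LSK KO, against 8.39, 8.36 and 8.48 in LSK WT, and rose by 0.32 (SE 0.08, adjusted p = 0.0377). In GMP it read 8.61, 8.66 and 8.57 in KO, against 8.94, 8.93 and 8.88 in WT, and fell by 0.30 (SE 0.08, adjusted p = 0.0184). The 4 groups did not overlap, in the order GMP WT, LSK KO, GMP KO and LSK WT from high to low. The rise in LSK was lost with any 1 LSK array left out (adjusted p 0.0679 to 0.144). The call of the fall in GMP was lost in the fit of the 6 GMP arrays alone.

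Wdr43 and Nob1 rose in LSK. Wdr43, of the processome, read 10.97, 10.87 and 11.14 in LSK KO, against 10.56, 10.60 and 10.57 in LSK WT (0.42, SE 0.10, adjusted p = 0.0265). Nob1, the nuclease that makes the last cut of the small subunit RNA, read 9.14, 9.31 and 9.35 in LSK KO, against 8.40, 8.69 and 8.80 in LSK WT. Its rise of 0.64 (SE 0.15, adjusted p = 0.0328) was the largest of the 40 genes in LSK, a 1.55-fold difference. Heatr1, another processome component, fell in GMP by 0.36 (adjusted p = 0.0091), with 9.59, 9.66 and 9.71 in KO against 9.97 to 10.09 in WT. Tsr1, of late small subunit assembly, was called in neither population, with fold changes of 0.37 in LSK (adjusted p = 0.0688) and -0.29 in GMP (adjusted p = 0.0854).

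The rest of the small subunit pathway was read from 41 measured genes. Of these, 6 were higher and 0 lower in LSK KO (median 0.18), and 0 were higher and 21 lower in GMP KO (median -0.40). The leading increases in LSK were Utp14a (0.73, adjusted p = 0.0026), Nop14 (0.54, adjusted p = 0.0124), Bms1 (0.42, adjusted p = 0.0295) and Utp15 (0.35, adjusted p = 0.0316). Of these, Utp14a kept its call with each LSK array left out, while Nop14 kept it in 3, Bms1 in 2 and Utp15 in 1 of the 6 fits. In GMP the leading decreases were Nol10 (-0.75, adjusted p = 0.000493), Mphosph10 (-0.86, adjusted p = 0.000747), Ltv1 (-0.75, adjusted p = 0.00153) and Bms1 (-0.54, adjusted p = 0.00229). Bms1, a GTPase of the processome, was thus called in both populations with opposite signs.

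Large subunit assembly counted 12 genes of the set. Pes1, Bop1 and Wdr12 form 1 complex (PeBoW) that processes the large subunit RNA, and their values did not run together. Bop1 read 7.29, 7.53 and 7.97 in GMP KO, against 8.33, 8.47 and 8.19 in GMP WT, and fell by 0.73 (SE 0.14, adjusted p = 0.0034). Pes1 read 9.60, 9.26 and 9.32 in GMP KO and 9.28, 9.45 and 9.42 in GMP WT, with overlapping groups and a fold change of 0.01. In LSK, Pes1 had all KO arrays above WT (9.41, 9.37 and 9.42 against 9.21, 8.87 and 8.79; log2 fold change 0.44, adjusted p = 0.0624), whereas Bop1 had all KO arrays below WT (7.76, 7.80 and 7.76 against 7.99, 7.89 and 7.86; -0.14, adjusted p = 0.746). Wdr12 was called in neither, with 0.13 in LSK and -0.17 in GMP, or 0.25 and -0.31 by its other probe set. Whether these genes of the complex differed from each other was not tested.

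Rrs1 and Nop16 rose in LSK. Rrs1, which helps to build the 5S RNP into the large subunit in yeast, read 8.72, 9.05 and 8.99 in LSK KO, against 8.46, 8.41 and 8.50 in LSK WT (0.46, SE 0.11, adjusted p = 0.0300). Nop16 read 10.06, 10.13 and 10.10 in LSK KO, against 9.57, 9.64 and 9.82 in LSK WT (0.42, SE 0.11, adjusted p = 0.0393). In GMP their fold changes were -0.34 (adjusted p = 0.0509) and -0.22 (adjusted p = 0.192), and without GMP KO replicate 1 Rrs1 passed the threshold (-0.39, adjusted p = 0.0353).

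Nop2 and Ftsj3 fell in GMP. Nop2, a methyltransferase of the large subunit RNA with an E-box in its printed window, read 8.24, 8.35 and 8.52 in GMP KO, against 8.79, 8.88 and 8.87 in GMP WT (-0.48, SE 0.12, adjusted p = 0.0129). Ftsj3, also of the methyltransferase kind, read 9.36, 9.26 and 9.29 in GMP KO, against 9.67, 9.91 and 9.81 in GMP WT (-0.49, SE 0.10, adjusted p = 0.0050). In LSK both had all KO arrays above WT, with 0.36 for each (adjusted p = 0.109 for Nop2 and 0.0647 for Ftsj3).

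The remaining 5 genes of the large subunit were called in neither population. Ebna1bp2 and Rrp1b came near the threshold in LSK, with fold changes of 0.32 (adjusted p = 0.0570) and 0.34 (adjusted p = 0.0507). In GMP, Nip7 had a fold change of -0.54 (adjusted p = 0.0974), with 7.54 in KO replicate 1 and 8.42 and 8.63 in the others, against 8.64, 8.77 and 8.80 in WT. The helicase Ddx18 had -0.07 in LSK and -0.29 in GMP, with the same signs in its other probe set (-0.13 and -0.22). Without GMP KO replicate 1 Ddx18 was called lower in GMP KO (-0.35, adjusted p = 0.0370). Nle1 had 0.08 and -0.19.

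Beyond these, 46 other genes of large subunit assembly were measured. In LSK KO 4 were higher and 0 lower (median 0.21), led by Sdad1 (0.60, adjusted p = 0.00777), Gtpbp4 (0.49, adjusted p = 0.0291), Gnl2 (0.49, adjusted p = 0.0295) and Nsa2 (0.43, adjusted p = 0.0441). Sdad1 kept its call with each LSK array left out, whereas Gtpbp4 and Gnl2 kept it in 0 and Nsa2 in 1 of the 6 fits. In GMP KO 0 were higher and 25 lower (median -0.39), led by Lyar (-0.56, adjusted p = 0.00117), Rpf2 (-0.52, adjusted p = 0.00391), Urb2 (-0.60, adjusted p = 0.0049) and Las1l (-0.59, adjusted p = 0.00601). Of 14 genes of the nuclear exosome and ribosomal RNA decay, 1 was higher in LSK KO (median 0.20), the exonuclease Xrn2 (0.47, adjusted p = 0.0207), which kept the call in 1 of the 6 fits with an LSK array left out. In GMP KO 8 of the 14 were lower (median -0.41), among them the exosome subunits Exosc3 (-0.75, adjusted p = 0.00341) and Exosc8 (-0.46, adjusted p = 0.00401) and the catalytic Dis3 (-0.49, adjusted p = 0.0103), which lost the call with 1 GMP array left out (adjusted p = 0.0592).

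**Figure D4:**
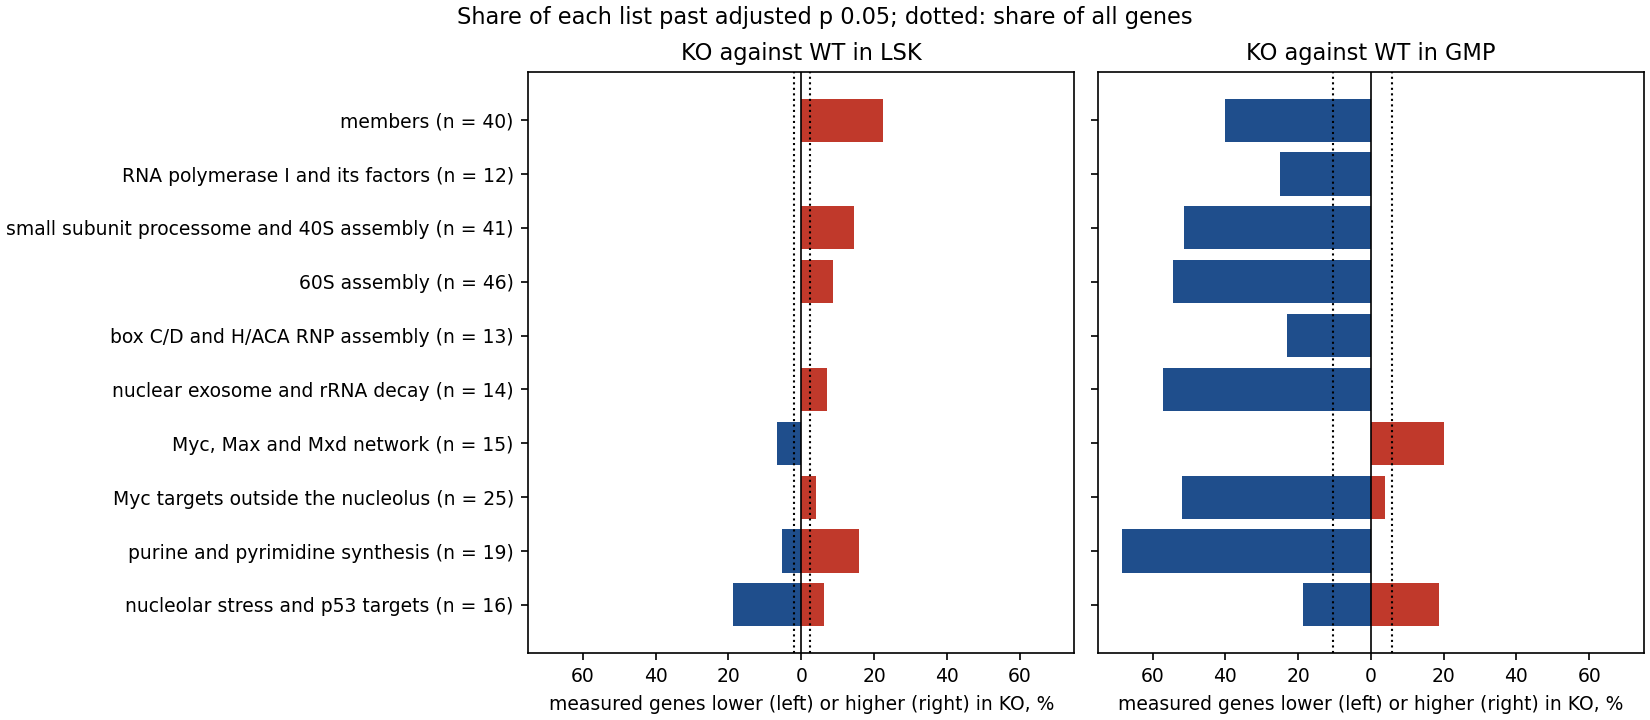
Share of the measured genes of each list that were lower (bars to the left) or higher (bars to the right) in KO at an adjusted p under 0.05, in LSK and in GMP; dotted lines give the share of all genes. The 40 genes reach 22.5% higher in LSK, and 16 of them are lower in GMP, and 25 of 46 large subunit genes are lower in GMP KO.

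Known Myc targets outside the nucleolus and the nucleotide pathways were read the same way. Of 25 measured Myc targets, 1 was higher and 0 lower in LSK KO (median 0.17), and 1 was higher and 13 lower in GMP KO (median -0.35). The transferrin receptor Tfrc was called in both, with 0.65 in LSK (adjusted p = 0.00485) and -0.86 in GMP (adjusted p = 0.000235). Mthfd2, a mitochondrial folate enzyme, fell in GMP by 1.43 (SE 0.18, adjusted p = 0.000146), the phosphatase Cdc25a by 0.51 (adjusted p = 0.00246) and the translation factor Eif4e by 0.65 (adjusted p = 0.0053). Slc3a2, a chain of amino acid transporters, rose in GMP by 0.34 (adjusted p = 0.0458), a call kept in 2 of the 6 fits with a GMP array left out. Of 19 genes of purine and pyrimidine synthesis, 3 were higher and 1 lower in LSK KO (median 0.19). In GMP KO 13 of the 19 were lower (median -0.40), among them Umps (-0.59, adjusted p = 0.00147), which completes pyrimidine synthesis after Cad, and Ctps (-0.63, adjusted p = 0.00335), which makes CTP. Ppat, the first enzyme of purine synthesis, rose in LSK by 0.45 (adjusted p = 0.0170), a call kept in 3 of the 6 fits with an LSK array left out.

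The KO effects themselves were compared between the populations. For 24 of the 40 genes the effect in LSK was above that in GMP at an adjusted p under 0.05, and for 0 it was below, against 5.34% and 2.64% of all genes. The median difference was 0.61, against -0.03 over all genes, and 39 of 40 differences were above 0, Mycn being the exception. With arrays centred on their median, the share of all called genes above 0 was 80.7%, in place of 66.9%. For 34 of the 40 genes the fold change was above 0 in LSK and below 0 in GMP. All 8 genes of small subunit assembly passed, as did 5 of 7 snoRNP proteins and 6 of 12 large subunit genes. The largest difference was that of Utp18 (1.06, SE 0.19, adjusted p = 0.00542), followed by Bysl (1.01, SE 0.21, adjusted p = 0.0115) and Nob1 (0.93, SE 0.22, adjusted p = 0.0201).

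Some genes passed this test with no call in either population. These were Ebna1bp2 (0.51, adjusted p = 0.0258), Rrp1b (0.58, adjusted p = 0.0148) and Tsr1 (0.66, adjusted p = 0.0178). Conversely Bop1 and Myc were called in 1 population without a called difference. In 14 genes neither KO effect nor their difference was called, among them Ncl, Npm1, Nop56, Pes1 and the polymerase subunits Polr1a and Polr1b. With each of the 12 arrays left out in turn, the number of genes called lay between 14 and 26, lowest without GMP WT replicate 2, and it was 15 when replicate 3 of LSK KO or replicate 1 or 2 of LSK WT was left out. Without GMP KO replicate 1 the difference of Heatr1 lost its call (0.39, adjusted p = 0.0505) and that of Pes1 gained one (0.54, adjusted p = 0.0495). With genotype and replicate number as a block, 19 differences were called, and Cad, Polr1e, Heatr1, Rrp12 and Ebna1bp2 lost theirs (adjusted p 0.0562 to 0.110).

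The populations were also set against each other within a genotype, using the same arrays as above, so that these values are not independent of the KO effects. In WT, 20 of the 40 genes were lower in LSK than in GMP and 1, Mycn, was higher, against 9.32% and 10.3% of all genes. The median log2 fold change was -0.39 (all genes -0.03). Of the 40 fold changes, 38 were below 0 and 2 above 0, while 44.1% of those of all genes were above 0. Among the 20 were Bysl (-0.83, adjusted p = 0.0011), Rrs1 (-0.81, adjusted p = 0.000122), Ftsj3 (-0.72, adjusted p = 0.000194), Nop2 (-0.64) and Nolc1 (-0.62). Myc did not follow them, with 11.85 ± 0.07 in LSK WT and 11.84 ± 0.08 in GMP WT (SD, n = 3 each; log2 fold change 0.01, 95% interval -0.20 to 0.21). Among all genes called in this comparison 52.4% were higher in LSK, or 34.3% with centred arrays.

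Within KO, 0 of the 40 genes were lower in LSK than in GMP and 10 were higher, against 5.79% and 10.1% of all genes, with a median of 0.20. The 10 were Myc (0.33, adjusted p = 0.0294), Mycn, Polr1e, Gnl3, Mybbp1a, Nop58, Dkc1, Utp18, Wdr43 and Nob1. Dkc1, for example, read 10.27, 10.26 and 10.43 in LSK KO and 9.89, 10.04 and 9.95 in GMP KO, with no overlap (0.36, adjusted p = 0.0233; without GMP KO replicate 1, 0.32 with adjusted p = 0.0509). This count rested on few arrays: it was 4 when replicate 1 of GMP KO was left out, 5, 6 and 1 when replicate 1, 2 or 3 of LSK KO was, and only Mycn was called in every such fit. Besides Dkc1, the calls lost without replicate 1 of GMP KO were those of Myc, Gnl3, Mybbp1a, Wdr43 and Nob1 (adjusted p 0.0548 to 0.109).

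Markers of other cells and of division moved with genotype and are given beside these results. Of 20 macrophage markers, 8 were higher and 0 lower in LSK KO, and 14 were higher and 0 lower in GMP KO. Their summed log2 level was 144.6 to 162.3 in LSK KO and 124.9 to 129.0 in LSK WT, and 170.8 to 181.7 in GMP KO and 131.0 to 133.7 in GMP WT. Cd68 read 10.04 to 11.14 in LSK KO, 8.15 to 8.38 in LSK WT, 11.81 to 12.25 in GMP KO and 9.07 to 9.15 in GMP WT, while C1qa read 6.31 to 7.40, 5.91 to 6.17, 7.47 to 7.92 and 5.87 to 5.99 in the same groups. None of the 20 was at or below 5.77 in all 12 arrays. Over the 20 macrophage markers, the median log2 fold change of KO over WT was 0.90 in LSK and 1.90 in GMP.

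Of 17 proliferation markers, 0 were called in LSK (median -0.17) and 17 were lower in GMP KO (median -0.78), with Top2a at -1.16 (adjusted p = 2.94e-05). Their summed log2 level was 164.6 to 167.5 in LSK KO and 167.6 to 170.0 in LSK WT, and 159.5 to 164.0 in GMP KO and 174.0 to 174.5 in GMP WT. Of 14 GMP and primary granule markers, 5 were higher and 0 lower in LSK KO (median 0.52), and 2 were higher and 3 lower in GMP KO (median -0.16). Their sum was 130.8 to 136.5 in LSK KO and 117.9 to 126.2 in LSK WT. Of 14 LSK and stem cell markers, Mycn among them, 0 were higher and 2 lower in LSK KO (median -0.36), and 2 were higher and 1 lower in GMP KO (median 0.07). Their sum was 116.9 to 119.6 in LSK KO and 121.4 to 123.6 in LSK WT. The part of these shifts in the results on ribosome biogenesis was not tested.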

How the data were processed

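RNA of sorted LSK and GMP cells was measured on 12 Affymetrix arrays. Per the submitters' processing notes the authors used RMA (background correction, quantile normalisation and probe set summary), with no software or version named. The deposited values are taken as log2 intensities, from array medians of 5.96 to 6.18 and maxima of 14.01 to 14.20. Of 34760 probe sets, 22961 had annotation, 21640 a single symbol and 1321 several; 21553 symbols were updated by gene identifier (GRCm38.p6). The brightest of several sets was used in 954 of 19937 genes. The files name no genome build, and positions are those of the RefSeq promoter table.

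Groups were compared with limma 3.58.1 in R 4.3.3 (12 arrays, 4 groups, two-sided). The fit had 8 residual degrees of freedom and 5.16 prior ones, with Benjamini-Hochberg adjustment over all genes and a threshold of 0.05. Every adjusted p is from this fit unless stated. It was also run on simulated data that gave a gene the same spread in all groups. That setting lacks spreads that differ between groups, so no support for the calls is drawn from it. The number of arrays limits the precision. The labels name 3 mice per genotype but tie no array to a mouse, so the spread is that between arrays.

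The 41 genes and 18 further lists (pathways and markers) were chosen with earlier results of these data known. Any of the 41 genes could be named; of other lists, up to 4 genes with the smallest p in each direction past the threshold. Alternatives were centred arrays, leaving out the dimmest 30% of genes, averaging a gene's probe sets, array weights, trend and robust options, replicate blocks, a fit of the 6 arrays compared and each array left out. Arrays with the same number in different groups did not deviate together (correlations of same-numbered arrays -0.18 to 0.28), so the numbers were not taken as pairs.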

Additional observations from a re-analysis of the deposited data

Results flagged for a closer look

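For 24 of the 40 genes the KO effect in LSK differed from that in GMP by limma's test of the difference itself (adjusted p under 0.05 over all genes), and each of these results is listed for that reason. The values are KO effect in LSK minus KO effect in GMP, on the log2 scale, and all were above 0. In small subunit assembly the difference was 1.06 for Utp18, 1.01 for Bysl, 0.93 for Nob1, 0.71 for Wdr43, 0.66 for Tsr1, 0.62 for Utp20, 0.62 for Rrp12 and 0.42 for Heatr1. Large subunit genes gave 0.86 for Ftsj3, 0.84 for Nop2, 0.80 for Rrs1, 0.64 for Nop16, 0.58 for Rrp1b and 0.51 for Ebna1bp2. Among the snoRNP proteins it was 0.84 for Dkc1, 0.72 for Gar1, 0.71 for Nop58, 0.66 for Fbl and 0.60 for Nhp2. Among the nucleolar regulators it was 0.75 for Ddx21, 0.74 for Nolc1 and 0.67 for Gnl3. Cad gave 0.68 and Polr1e 0.55. In 14 of the 24 genes the difference stayed past the threshold with each of the 12 arrays left out in turn. The other 10 (Cad, Polr1e, Fbl, Nop58, Heatr1, Rrp12, Tsr1, Nob1, Ebna1bp2 and Nop16) each lost it without GMP WT replicate 2, among other arrays.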

How the results depend on the processing

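Over the 200 pairs of gene and comparison, 2840 values were recomputed under the alternatives. Of these, 2551 kept their side of the threshold, 201 lost a call, 88 gained one and 0 called values changed sign. Among the 2551, a sign turned in 38 values of 18 pairs that were called in neither setting. With arrays centred on their median, the median log2 change of the 40 genes was -0.37 for KO against WT in GMP, 0.70 for the difference of the effects and -0.48 for LSK against GMP in WT. Array weights gave 17 genes higher and 1, Mycn, lower in LSK KO (1734 of all genes called, against 886) and 5 higher in LSK than in GMP within KO. A fit of the 6 arrays compared called 11 of the 40 genes higher in LSK KO and 1390 of all genes in LSK, against 886. In GMP it called 8 of the 40 genes lower in KO and 1778 of all genes, against 3212. This fit has fewer degrees of freedom, and its calls rose in LSK and fell in GMP. The cause of these changes was not tested. With the replicate number as a block, 7 genes were called higher in LSK KO, 16 lower in GMP KO, 23 in the difference, 21 lower in LSK than in GMP within WT, and 8 higher in LSK than in GMP within KO; the numbers mark no known pair. The replicate block of genotype and number gave 19 called differences, against 24, and 6 genes higher in LSK than in GMP within KO. With 1 array left out, which also leaves fewer arrays, genes higher in LSK KO numbered 1 to 4 (455 to 643 of all genes called), genes lower in GMP KO 7 to 18 (1853 to 3628), called differences 14 to 26 (800 to 2006) and genes higher in LSK than in GMP within KO 1 to 11 (1667 to 4044), whose median was 0.13 to 0.27. No array-level depth is known; the 3 arrays per group limit the precision.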

Other observations

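Genes of nucleolar stress and of p53, which is stabilised when ribosome assembly fails, moved both ways. Of 16 measured, 1 was higher and 3 lower in LSK KO (median -0.04), and 3 were higher and 3 lower in GMP KO (median 0.03). Gadd45a, which restrains the cell cycle, rose in LSK by 0.45 (SE 0.10, adjusted p = 0.0187), and its increase in GMP was 0.71 (SE 0.10, adjusted p = 0.000329). In GMP KO the antiproliferative Btg2 was higher by 1.41 (SE 0.27, adjusted p = 0.00314), as was the kinase Plk2 by 1.17 (SE 0.31, adjusted p = 0.0196). The sestrins Sesn1 and Sesn2, stress proteins that restrain mTORC1, fell in both populations: Sesn1 by 0.66 in LSK and 0.53 in GMP, and Sesn2 by 0.52 in LSK and 0.46 in GMP. In the same list Ccng1 fell in GMP by 0.49 and Pml in LSK by 0.57. With 1 array left out, the calls of Gadd45a in LSK, of Sesn2 in both populations and of Plk2, Sesn1 and Ccng1 in GMP were lost in at least 1 fit.

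Other cell type markers also differed with genotype. Of 10 monocyte markers, 4 were higher and 0 lower in LSK KO, and 2 were higher and 5 lower in GMP KO, among them Irf8, a factor of monocyte fate, at -1.19 (adjusted p = 7.44e-05). Of 9 mast cell and basophil markers, 4 were higher in LSK KO and 3 in GMP KO, with 0 lower; the mast cell protease Cpa3 rose by 2.68 in LSK and 1.34 in GMP. Of 14 lymphoid markers, 1 was higher and 1 lower in LSK KO and 2 were higher and 3 lower in GMP KO, with Il7r higher by 4.66 in GMP KO. Of 7 erythroid markers 1 was lower in LSK KO and 2 in GMP KO, and of 6 megakaryocyte and platelet markers 2 were lower in LSK KO, and 1 was higher and 1 lower in GMP KO.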
